A study of Mus musculus with 474 samples.

Results

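The genes described are 8 members of the dystrophin complex, Dmd, Utrn, Sgca, Sgcb, Sgcd, Dag1, Dtna and Sspn, picked by gene symbol out of the 20612 genes of the deposited tables and not by any measured value. All 8 passed the filter on low counts, as did 18823 genes in all. The values come from polyadenylated RNA of skeletal muscle, which the study's methods name as gastrocnemius, from Diversity Outbred (DO) mice with 1 library per animal. DO mice are bred from a set of inbred founders and kept outbred, so that no 2 animals need share a genome, and relatedness between animals was not modelled, so the p-values below treat animals as independent. Every animal was fed the same high-fat, high-sugar diet, labelled 45 percent fat, and there was no animal on another diet, so nothing below bears on the diet. The labels give the sex and a number in each title (17, 18, 19, 21 or 23) that was read as the outbred generation, an assumption for 17 and 23, which the sources used here do not name. This made 10 groups, 5 of females with 45 to 49 animals and 5 of males with 46 to 50. The labels give no age, and the methods describe a single adult age at harvest.

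The dystrophin complex links the actin cytoskeleton of the muscle fibre to the extracellular matrix. Dystrophin lies under the membrane, binds actin at its amino end and beta-dystroglycan near its carboxyl end, while alpha-dystroglycan outside the cell binds laminin. Sarcoglycans and sarcospan form a membrane subcomplex beside dystroglycan, and dystrobrevin and the syntrophins bind on the inner side. Loss of dystrophin causes Duchenne muscular dystrophy and loss of a sarcoglycan causes limb-girdle dystrophies, and utrophin, the autosomal relative of dystrophin, is enriched at the neuromuscular junction of mature fibres. The deposited positions (GRCm38) were chromosome X, 82948870 to 85206141, plus strand, for Dmd, chromosome 10, 12382188 to 12869365, minus strand, for Utrn, and chromosome 9, 108204634 to 108263958, minus strand, for Dag1. Sgca lies at 94962791 to 94976327 and Sgcd at 46896253 to 47988969, both on the minus strand of chromosome 11. Sgcb lies on chromosome 5 at 73632749 to 73647790, minus strand and Sspn on chromosome 6 at 145931641 to 145965223, plus strand. Dmd is the only member on the X chromosome.

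Promoter windows of 3 members are shown because, over all animals, Dmd and Sgcd had the highest correlation among all pairs of members and Sgca had a negative correlation with both. The negative signs of Sgca with Dmd and with Sgcd did not hold in every fit, as given below. Each is the 250 bases before a RefSeq transcript start (GRCm38.p6), written 5′ to 3′ on the gene's own strand, at chrX:82948620-82948869 for Dmd, chr11:47379326-47379575 for Sgcd and chr11:94976328-94976577 for Sgca. Capitals mark matches on either strand to an E box (CANNTG), an M-CAT element (CATTCC, read as GGAATG on the other strand) or a CArG box, the binding element of serum response factor.
Dmd, muscle start: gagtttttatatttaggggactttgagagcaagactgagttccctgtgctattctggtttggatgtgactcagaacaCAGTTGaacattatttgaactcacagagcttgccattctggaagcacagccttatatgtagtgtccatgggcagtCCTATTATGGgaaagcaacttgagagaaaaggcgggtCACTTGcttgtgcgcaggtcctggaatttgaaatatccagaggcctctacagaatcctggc
Sgcd: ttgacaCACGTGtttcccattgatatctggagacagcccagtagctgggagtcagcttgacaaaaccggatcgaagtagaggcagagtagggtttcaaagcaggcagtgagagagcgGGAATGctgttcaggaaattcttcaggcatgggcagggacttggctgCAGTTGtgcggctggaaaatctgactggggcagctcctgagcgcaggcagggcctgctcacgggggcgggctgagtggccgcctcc
Sgca: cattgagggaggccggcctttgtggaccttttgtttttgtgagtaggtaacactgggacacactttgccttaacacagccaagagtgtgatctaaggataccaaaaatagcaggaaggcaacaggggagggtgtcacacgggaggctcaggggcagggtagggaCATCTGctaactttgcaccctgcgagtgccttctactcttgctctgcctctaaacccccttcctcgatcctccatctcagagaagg
The Dmd window held 2 E boxes and 1 CArG box, the Sgcd window 2 E boxes and 1 M-CAT element, and the Sgca window 1 E box. Over 32851 RefSeq windows of the same length, 66.2% held an E box, 12.6% an M-CAT element and 1.47% a CArG box. An N box (CCGGAA, found in 12.03% of windows) and a MEF2 box (0.508%) were also searched and had no match in the windows of the 7 members that were read. A match is a description of the letters and not a measured site.

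Library totals ran from 35.9 M to 166 M estimated counts with a median of 79.3 M, and the lowest count of any member in any library was 938, for Sgcd. Levels are given as CPM, counts relative to the library total scaled by TMM factors. Muscle markers were high in every library, with Acta1 (skeletal actin) at 11590 CPM or above and Ckm (muscle creatine kinase) at 6809 CPM or above. Alb (albumin) had a median of 0.166 CPM but reached 763.4 CPM at its highest. Xist or the Y-linked Ddx3y was outside the level set for the labelled sex in 5 libraries. Of these, 3 had almost none of either RNA, 1 labelled male had both, and 1 labelled female had high Xist with a trace of Ddx3y, so none had the full pattern of the other sex. In addition, 4 columns stood out of animal order in the tables. This made 7 libraries in all, and leaving them out changed no call on the members. Libraries also differed in the length slope, the slope of a library's expression on gene length relative to the other animals, in VST units per unit of log10 length. The length used for it is that of all annotated exons of a gene joined. Titles also hold, just before the tissue, what was taken to be a library number. Its 5 stretches of up to 96 numbers are called library blocks below, since the labels do not say what they are. Block 1 stood apart with a mean length slope of 0.0857 ± 0.120 (SD, n = 96), against means of -0.0385 to -0.00623 in the other 4 blocks.

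Per length, Sgca was the most abundant member and Utrn the least. On the scale of CPM per kilobase of the longest coding transcript, the mean level was 69.7 ± 10.6 (SD over all animals) for Sgca, 56.2 ± 5.95 for Dag1, 30.0 ± 4.40 for Sgcb, 22.3 ± 2.54 for Dtna, 21.1 ± 3.49 for Sgcd, 18.1 ± 2.78 for Sspn, 16.5 ± 3.36 for Dmd and 4.45 ± 0.544 for Utrn. Sgca exceeded Dag1 in 90.1% of libraries, and Dag1 exceeded Sgcb, and Dmd exceeded Utrn, in 100%. The middle of the order was less clear, since Dtna exceeded Sgcd in 61.2% of libraries, Sgcd exceeded Sspn in 75.7% and Sspn exceeded Dmd in 64.6%. With the length of all annotated exons joined, Sgcd (4.13 CPM per kilobase) and Dtna (5.07) moved below Sspn (16.1) and Dmd (10.3), and Utrn stayed last at 3.22. The placing of Sgcd and Dtna thus depends on the length used, and counts per gene do not show which transcripts were present.

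The members also differed in how much they varied among animals. Dmd ranged from 88.3 to 464.1 CPM, a 5.25-fold range, and the SD of its VST score after sex and generation was 0.289, higher than that of 78.9% of genes tested. Dag1 ranged from 223.5 to 423.9 CPM, a 1.897-fold range, and its SD of 0.118 was higher than that of 3.46% of genes. Both ends of the Dmd range were libraries of block 1, with length slopes of -0.338 and 0.347. Among genes of like mean level, within 0.5 VST units, the SD of Dmd exceeded that of 85.1% and the SD of Dag1 that of 2.77%. The other 6 members lay between, with SDs from 0.153 for Dtna to 0.240 for Sgcd.

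**Figure D1:**
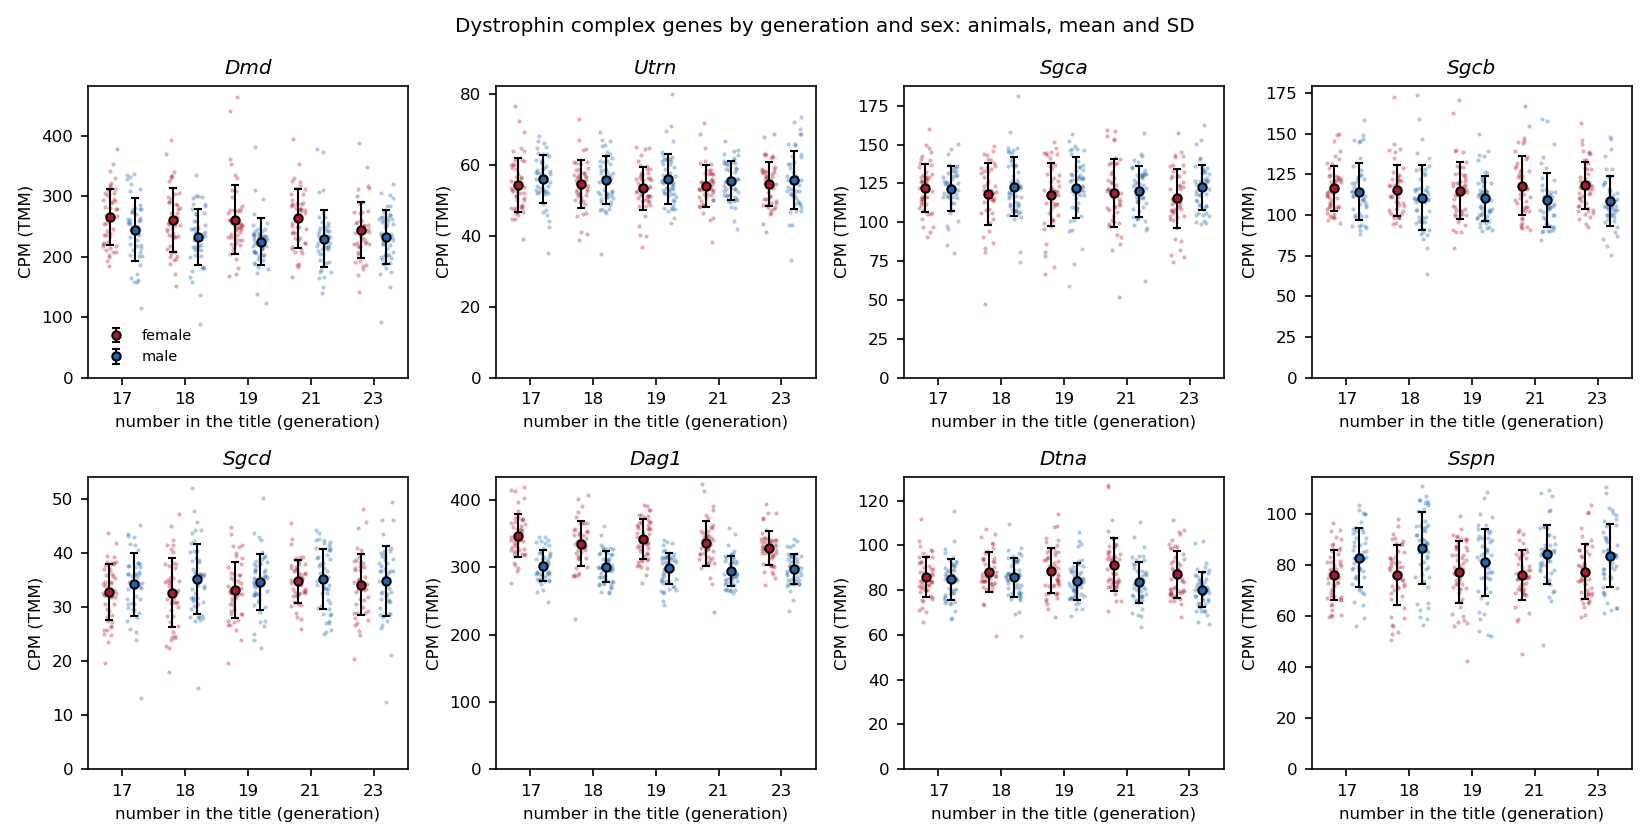
CPM of each member (y axis, from 0) by the generation number in the title (x axis), in females (red) and males (blue), with 1 small point per animal and the group mean ± SD. Dag1 and Dmd sit higher in females and Sspn higher in males in each of the 5 generations, and every pair of groups overlaps.

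The first comparison asked whether the members differ between the sexes. Of the 8 members, 7 passed the threshold of an adjusted p of 0.05, 4 lower and 3 higher in males (edgeR quasi-likelihood test, Benjamini-Hochberg over all genes tested). Sex differences were common in this muscle, with 55.0% of genes tested past the same threshold, 24.4% higher and 30.6% lower in males, so the count of members is set against a high background. The median size of the log2 difference was 0.0772 over the members and 0.0937 over all genes tested. Values in females and males overlapped for every member.

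Dag1, which encodes both dystroglycan subunits, had the clearest difference. Its level ran from 223.5 to 423.9 CPM in females with a median of 337.6, and from 235.9 to 361.4 CPM in males with a median of 297.6. The upper quartile of the males (315.5 CPM) lay below the lower quartile of the females (320.1 CPM), although the ranges overlapped. The log2 difference, male minus female, was -0.18 (SE 0.0113, adjusted p = 1.83e-43), 11.6% lower in males. Within the 5 generations it ran from -0.20 to -0.15, and within the 5 library blocks from -0.19 to -0.16, past the threshold in all 10 fits.

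Dmd was lower in males as well. It ran from 141.7 to 464.1 CPM in females with a median of 253.1, and from 88.3 to 381.5 CPM in males with a median of 232.3. The log2 difference was -0.15 (SE 0.0262, adjusted p = 4.01e-08), 10.1% lower in males. The sign was the same in all 10 fits within generations or blocks, from -0.23 in library block 1 to -0.07 in generation 23, and 6 of the 10 passed the threshold. Of the X-linked genes tested, 38.8% were called lower and 19.7% higher in males.

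Utrn, the relative of dystrophin, had a small difference in the opposite direction. It ran from 36.9 to 76.8 CPM in females with a median of 54.2, and from 33.2 to 80.03 CPM in males with a median of 55.6. The log2 difference was 0.04 (SE 0.0163, adjusted p = 0.0213), and the call did not hold with scaling by total count alone (0.01, adjusted p = 0.724), with the length slope as covariate (0.02, adjusted p = 0.331) or without library block 1 (0.04, adjusted p = 0.0803). It was above 0 in all 10 fits within generations or blocks, and 0 of the 10 passed. The ratio of Utrn to Dmd, which needs no scaling between libraries, had a mean log2 of -2.24 ± 0.282 (SD over all females) in females and -2.04 ± 0.278 in males. Males were higher by 0.20 (permutation test, two-sided, 100000 resamples, p = 1e-05, the smallest these can give). The difference had the same sign within all 5 generations and all 5 blocks, and was smallest in generation 23 at 0.10 (p = 0.124).

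Sspn, the tetraspan protein sarcospan, was higher in males. It ran from 42.5 to 104 CPM in females with a median of 76.7, and from 48.6 to 111 CPM in males with a median of 84.4. The log2 difference was 0.13 (SE 0.0200, adjusted p = 2.89e-09), 9.20% higher in males, and was above 0 in all 10 fits within generations or blocks, of which 6 passed.

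The sarcoglycans differed in direction and in how far their calls held. Sgcb had a median of 115 CPM in females and 109 in males, and was lower in males with a log2 difference of -0.08 (SE 0.0188, adjusted p = 1.93e-04). It passed in 4 of 10 fits within generations or blocks and not with the marker scores as covariates (-0.03, adjusted p = 0.244). Sgcd had medians of 33.3 and 35.1 CPM and was higher in males by 0.05 (SE 0.0228, adjusted p = 0.0313), with a value of -0.05 within library block 2. The Sgcd call did not hold with scaling by total count alone (0.02, adjusted p = 0.383), with the length slope as covariate (0.03, adjusted p = 0.263) or by limma (0.05, adjusted p = 0.055), and it passed in 1 of the 10 fits within generations or blocks. Sgca had medians of 119 and 123 CPM and a difference of 0.04 (SE 0.0211) that did not pass (adjusted p = 0.0944). The 95% interval of the Sgca difference ran from -0.0011 to 0.082, and with the library block as covariate it passed at 0.05 (adjusted p = 0.0322), as it did by limma at 0.05 (adjusted p = 0.0319), without library block 1 at 0.05 (adjusted p = 0.022) and with the length slope as covariate at 0.08 (adjusted p = 6.02e-06).

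Dtna, the cytoplasmic adaptor alpha-dystrobrevin (chromosome 18, 23415135 to 23659715, plus strand), had a median of 86.6 CPM in females and 83.2 in males. The log2 difference was -0.08 (SE 0.0144, adjusted p = 4.57e-07), 5.28% lower in males. Its values within generations ran from -0.13 in generation 21 to -0.01 in generation 17, all below 0, with 5 of the 10 fits within generations or blocks past the threshold. The test of whether the sex difference of Dtna varied between generations gave an adjusted p of 0.883.

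**Figure D2:**
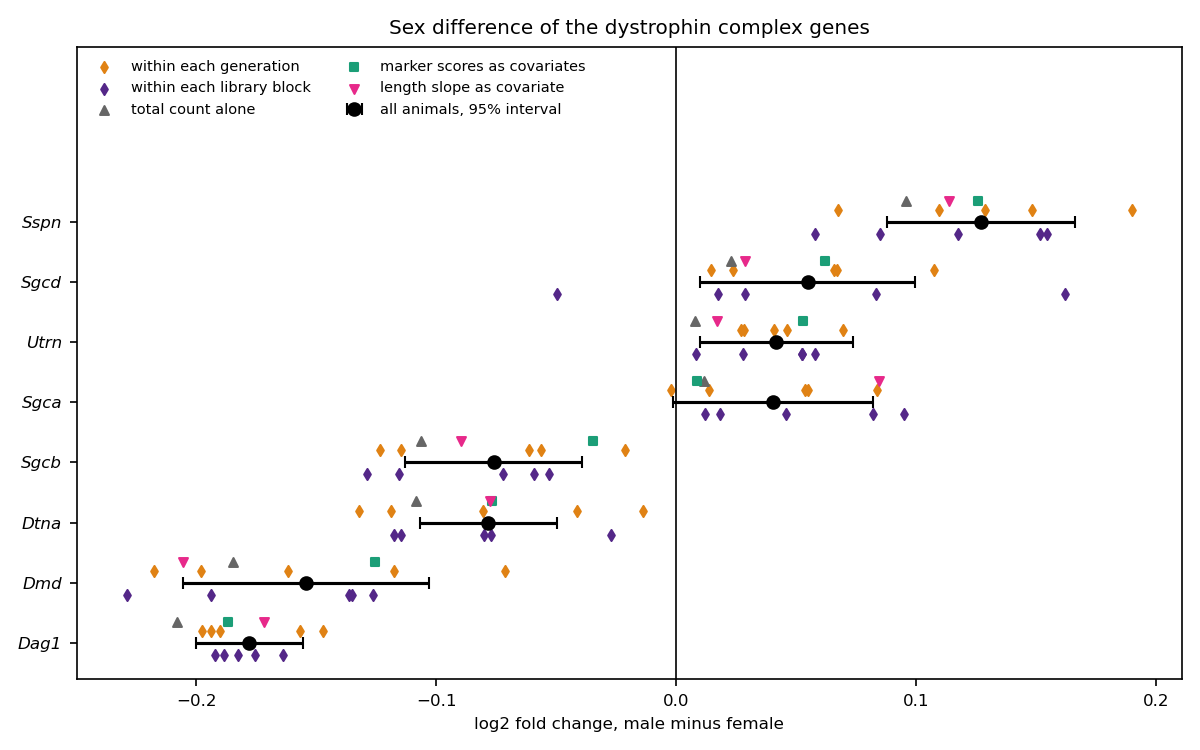
Sex difference of each member as log2 fold change (x axis, male minus female), with the 95% interval of the fit on all animals (black) and the values within each generation, within each library block and under 3 other fits. Dag1, Dmd, Dtna and Sspn keep their side of 0 in every fit shown, and Utrn and Sgcb keep theirs within every generation and library block. Sgcd crosses 0 within library block 2 and Sgca within generation 17.

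Cell composition markers differed between the sexes too. All 9 slow-fibre markers and 7 of 9 adipocyte markers were lower in males, and 10 of 10 endothelial and 8 of 10 smooth muscle and pericyte markers were higher. The slow-fibre score, the mean of standardised marker values, ran from -4.32 to 3.44 in females with a mean of 0.452 and from -3.24 to 2.83 in males with a mean of -0.444. No marker in any of the 10 lists was lost to the filter on low counts. With all 10 scores as covariates, the sex differences of Dag1 (-0.19), Dmd (-0.13), Dtna (-0.08), Sspn (0.13) and Utrn (0.05) still passed, while that of Sgcb did not and Sgcd, at 0.06, lost the call (adjusted p = 0.0853). In whole tissue, a change in the number of cells of a type cannot be told apart from a change in RNA per cell.

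Generation was the next comparison. No member passed the threshold between the 5 generations by edgeR, DESeq2 or limma, against 7.56% of all genes tested. At an unadjusted p under 0.05 there were 2, Dag1 (p = 0.0325, adjusted p = 0.195) and Dtna (p = 0.0431, adjusted p = 0.231). The group means of Dag1 ran from 329.3 CPM in generation 23 to 347.6 in generation 17 in females, and from 294.4 to 302.9 CPM in males. Those of Dmd ran from 244.5 CPM in generation 23 to 266.6 in generation 17 in females, and the highest in males was 244.9 CPM, in generation 17. Fitted ranges across generations were at most 0.10 on the log2 scale, for Dmd, and as low as 0.01 for Utrn. No sex difference varied between generations past the threshold (0.531% of genes tested did), with Dtna lowest at an unadjusted p of 0.0623.

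Library blocks differed more than generations. Of the 8 members, 5 passed between blocks, against 47.4% of genes tested. Dmd averaged 277.4 ± 59.4 CPM (SD, n = 96) in block 1 and 230.2 to 250.7 CPM in the other blocks, and Utrn 59.2 ± 6.53 CPM against 52.6 to 54.9. Sgca went the other way, with 112 ± 24.0 CPM in block 1 and 118 to 126 in the others. Sgcd (adjusted p = 1.18e-04) and Sgcb (adjusted p = 0.0486) also passed, while Dag1 (adjusted p = 0.408), Dtna (0.204) and Sspn (0.0967) did not.

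The pairwise relations among animals were computed on VST scores after sex and generation were regressed out. Of the 28 pairs of members, 21 passed an adjusted p of 0.05 (permutation of animals, 100000 resamples, adjusted over the 28 pairs), 16 positive and 5 negative. The weakest of these had an r of 0.0982, and 30.6% of all pairs of genes tested had an r of at least that size. Of the 28 pairs, 6 had an r of at least 0.3 in size (21.4%), against 3.67% of all 177143253 pairs of genes. The median r was 0.132 over the pairs of members and -0.001 over all pairs of genes. Pairs past the threshold were 16 positive and 2 negative with the library block as covariate, and 17 and 2 with the length slope as covariate. They were 17 and 2 without block 1, 15 and 2 in females alone, 15 and 4 in males alone, and 19 and 5 with the marker scores as covariates. Pairs share the same libraries and members, so these counts describe the set and are not independent of each other.

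Dmd and Sgcd, dystrophin and delta-sarcoglycan, were the pair with the highest r, 0.604 (rho 0.538, permutation p = 1e-05 for each, over all animals). Leaving out the 2 animals farthest from the median gave 0.563. The library with the lowest Dmd, a male of generation 18 at 88.3 CPM, had 14.99 CPM of Sgcd, and the library with the lowest Sgcd (12.4 CPM), a male of generation 23, had 92.2 CPM of Dmd. Both had length slopes far below the rest, at -0.338 and -0.454. The relation was past the threshold under all 15 alternatives, from 0.443 within block 3 to 0.703 within block 1, and 0.52 with the length slope as covariate. By r, Dmd ranked 7 among 18822 genes for Sgcd, and Sgcd ranked 51 for Dmd.

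Dmd and Utrn had an r of 0.376 (rho 0.268, p = 1e-05 for each, 0.323 without the 2 farthest animals) and Utrn and Sgcd 0.396 (rho 0.262, p = 1e-05 for each, 0.337 without them). The longest coding transcripts have 14910 bases for Dmd, 12382 for Utrn and 1617 for Sgcd. The joined exons, the length used for the slope, have 23801, 17108 and 8257 bases. With the length slope as covariate the r of Dmd and Utrn was 0.152 and that of Utrn and Sgcd 0.277. With the marker scores as covariates they were 0.564 and 0.503. Within single blocks the r of Dmd and Utrn ran from 0.102 to 0.469, and that of Utrn and Sgcd from 0.0338 in block 3 to 0.612 in block 2.

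Sgca had negative relations with several members. Its r was -0.336 with Utrn (rho -0.273, p = 1e-05 for each, -0.321 without the 2 farthest animals) and -0.218 with Dmd (rho -0.116, p = 1e-05 for r and 0.0112 for rho, -0.195 without them). Sgca also passed by r with Sgcd (-0.136), Sspn (-0.117) and Sgcb (-0.108). By rho Sspn passed (-0.105, adjusted p = 0.0352), while Sgcd (-0.0719, adjusted p = 0.151) and Sgcb (0.00336, adjusted p = 0.941) did not. Without the 2 farthest animals the r of Sgca and Sgcb was -0.0546 (adjusted p = 0.277). The sign of Dmd and Sgca was not general. Within blocks 1 and 3 its r was -0.533 and -0.101, and in blocks 2, 4 and 5 it was 0.0936, 0.120 and 0.148. With the length slope as covariate the pair had an r of 0.198, and without block 1 an r of 0.0382. The r of Utrn and Sgca was negative in 4 of 5 blocks, at -0.58, -0.257, -0.362 and -0.233 in blocks 1 to 4 and 0.107 in block 5. It was -0.193 without block 1 (adjusted p = 0.00035) and -0.08 with the length slope as covariate (adjusted p = 0.0923). The Sgca transcript has 1724 bases and its joined exons have 1735. Sgca and the length slope had an r of -0.600 (rho -0.452), while Dmd (0.579, rho 0.445), Utrn (0.460, rho 0.370) and Sgcd (0.362, rho 0.223) were positive (p of 2e-05 or less for each, 16 relations of members with library measures tested). In size, 4.95% of genes tested had a stronger relation with the length slope than Sgca and 5.89% a stronger one than Dmd.

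Other pairs were positive within all 5 blocks. Dag1 and Dtna had an r of 0.303 (rho 0.339, p = 1e-05 for each) and 0.31 with the length slope. Sgcd and Dtna had 0.333 (rho 0.290), Sgca and Dag1 0.291 (rho 0.265) and Sgcb and Dtna 0.272 (rho 0.260), each with a p of 1e-05 for r and rho. Within blocks, Dag1 and Dtna ran from 0.149 in block 5 to 0.455 and did not pass in block 5, and Sgcd and Dtna ran from 0.135 to 0.431 and did not pass in blocks 1 and 4. Sgca and Dag1 ran from 0.234 in block 2, where they did not pass, to 0.382, and Sgcb and Dtna ran from 0.180 to 0.321 and did not pass in blocks 2, 4 and 5. With the marker scores as covariates, Sgca and Dag1 stood at 0.122 (adjusted p = 0.00955). Without the 2 farthest animals the 4 pairs, in the order first given, stood at 0.319, 0.315, 0.275 and 0.265. Dtna, whose own r with the length slope was 0.0122, correlated with Dag1, Sgcb, Sgcd and Dmd (0.242, rho 0.219) but had an r of -0.0139 with Utrn and 0.0404 with Sgca, neither past the threshold by r. Dmd and Dtna were not positive in every block, with r of -0.114 in block 3, 0.00936 in block 4 and 0.271, 0.387 and 0.332 in blocks 1, 2 and 5. Sgca and Dtna passed by rho (0.106, adjusted p = 0.0346), without block 1 (r = 0.185, adjusted p = 0.000711) and within block 3 (0.288), but with the opposite sign with the marker scores as covariates (-0.152, adjusted p = 0.00181). Utrn and Dtna passed within block 3 (-0.375) and, with the opposite sign, with the marker scores (0.155, adjusted p = 0.00162).

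**Figure D3:**
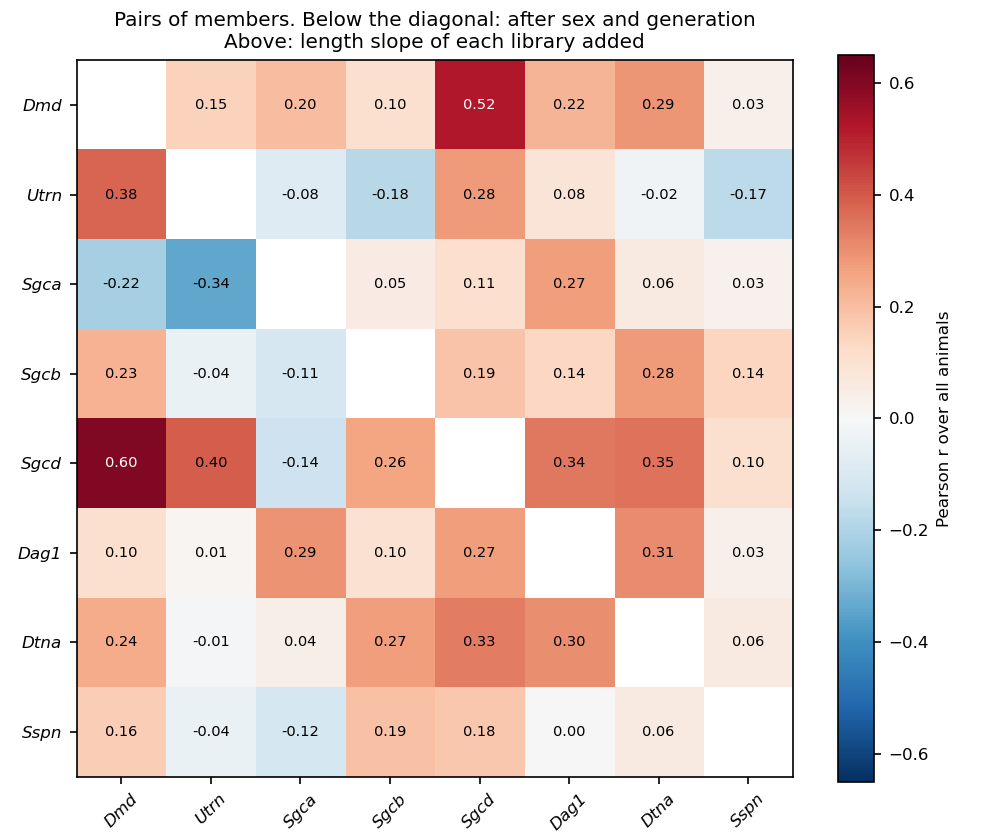
Pearson r for each of the 28 pairs over all animals, with VST scores after sex and generation below the diagonal and with the length slope of each library added as a covariate above it. Dmd with Sgcd is the highest cell on both sides (0.60 and 0.52), and the negative cells of Sgca with Dmd, Sgcb, Sgcd and Sspn below the diagonal are above 0 above it.

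**Figure D4:**
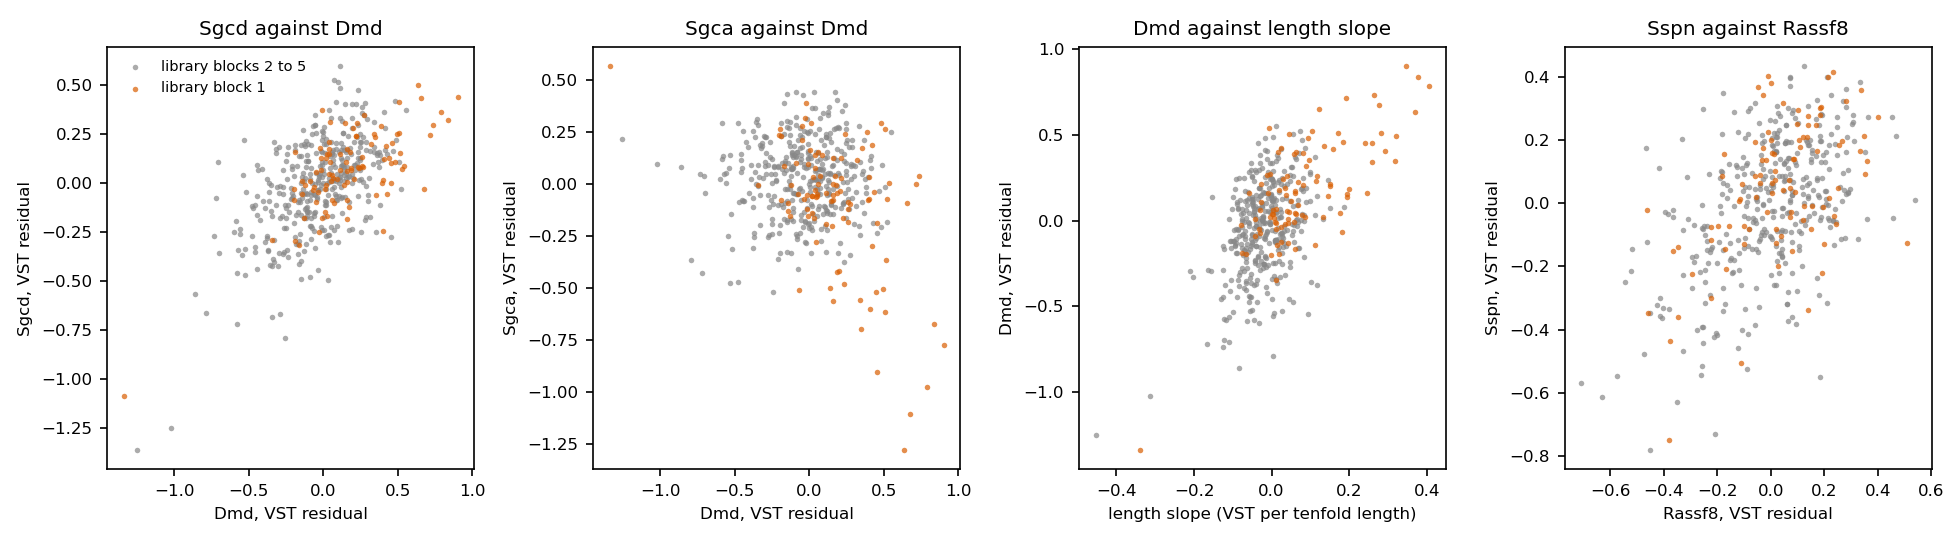
VST residuals after sex and generation, 1 point per animal, with library block 1 in orange and blocks 2 to 5 in grey: Sgcd against Dmd, Sgca against Dmd, Dmd against the length slope (VST units per log10 length), and Sspn against Rassf8. Libraries of block 1 with high Dmd and low Sgca form the lower right of the panel of Sgca against Dmd, and the panel of Sspn against Rassf8 shows no such split.

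The genes most like each member over all animals were found among all genes tested. For Dmd they were Neb (nebulin, r = 0.815), 4932438A13Rik (0.810) and Birc6 (0.783), and the most negative was Gnb2 (-0.539). For Sgcd they were Kmt2c (0.621), Dst (dystonin, 0.620) and Ttn (titin, 0.620), with Gm12098 the most negative (-0.440). For Utrn they were Sptbn1 (a spectrin, 0.609), Fat1 (0.608) and Syne2 (nesprin-2, 0.578), with Jagn1 the most negative (-0.471). These 9 partners had coding transcripts of 8461 bases or more, and each r held at 0.536 or above with the length slope as covariate. The negative r of Gnb2 was -0.188 in that fit.

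Sgca was most like Rtn2 (0.757), Bag6 (0.696) and Aldoa (aldolase A, 0.690) and least like Sh3bgrl (-0.643), and with the length slope as covariate the first 3 had r of 0.586, 0.478 and 0.488. Dag1 was most like Myo18a (0.586), Pcnt (0.550) and Filip1 (0.515) and least like Tmsb4x (thymosin beta-4, -0.526), which stood at 0.581, 0.540, 0.555 and -0.526 with that covariate. Sgcb had weaker partners, Capza2 (0.420), Serbp1 (0.413) and Ccdc47 (0.412), with Zyx (zyxin) at -0.395. So did Dtna, with Glrx3 (0.377) and Myom1 (myomesin 1, 0.362), and Sec61a1 at -0.364. Dmd had an r of at least 0.3 in size with 10.9% of genes and Sgca with 18.6%, while Dtna had one with 0.372% and Sspn with 0.112%.

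The closest partner of Sspn was its neighbour. Rassf8 begins 0.185 megabases from Sspn on chromosome 6 (145746748 to 145821079) and had an r of 0.499 (rho 0.445), the highest of all genes for Sspn and clear of the next, Flrt2 (0.345) and Opa1 (0.340). The r was 0.451 to 0.545 within each of the 5 blocks, 0.481 in females and 0.517 in males, and 0.471 with the length slope as covariate. The most negative partner of Sspn was Hip1r (-0.334). Over the 8 members, the highest r with any gene within 4 megabases ran from 0.255 for Dtna to 0.618 for Sgca, and Sspn alone had its first-ranked gene there. For Dag1 it was Lamb2 (laminin beta-2, named after its value was seen), with an r of 0.396 and rank 28, the highest of 170 neighbours with a median r of 0.0227. No genotypes were analysed here.

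Members also moved with marker scores. Of 80 pairs of a member and a score, 35 passed the threshold (permutation, adjusted over the 80), 14 positive and 21 negative, and 25.9% of all pairs of a gene and a score had an r of at least the size of the weakest. Utrn was positive with 7 of the 10 scores, with r of 0.377 for adipocyte (rho 0.384), 0.335 for endothelial (rho 0.314), 0.264 for Schwann cell and 0.251 for fibroblast markers, and negative with glycolytic IIb fibre markers (-0.348, rho -0.339). Sgca had the highest r of any member with the IIb score, 0.501 (rho 0.502), and was negative with the adipocyte score (-0.284, rho -0.295). Each of these had p = 1e-05. Dtna (0.272) and Dag1 (0.216) were also positive with the IIb score. Dmd had an r of 0.00375 with the IIb score, but 0.322 with the length slope as covariate, where Sgca had 0.351 and Utrn -0.197. With the slow-fibre score, Dag1 passed (0.144) and the other 7 members had r from -0.00105 to 0.0484.

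**Figure D5:**
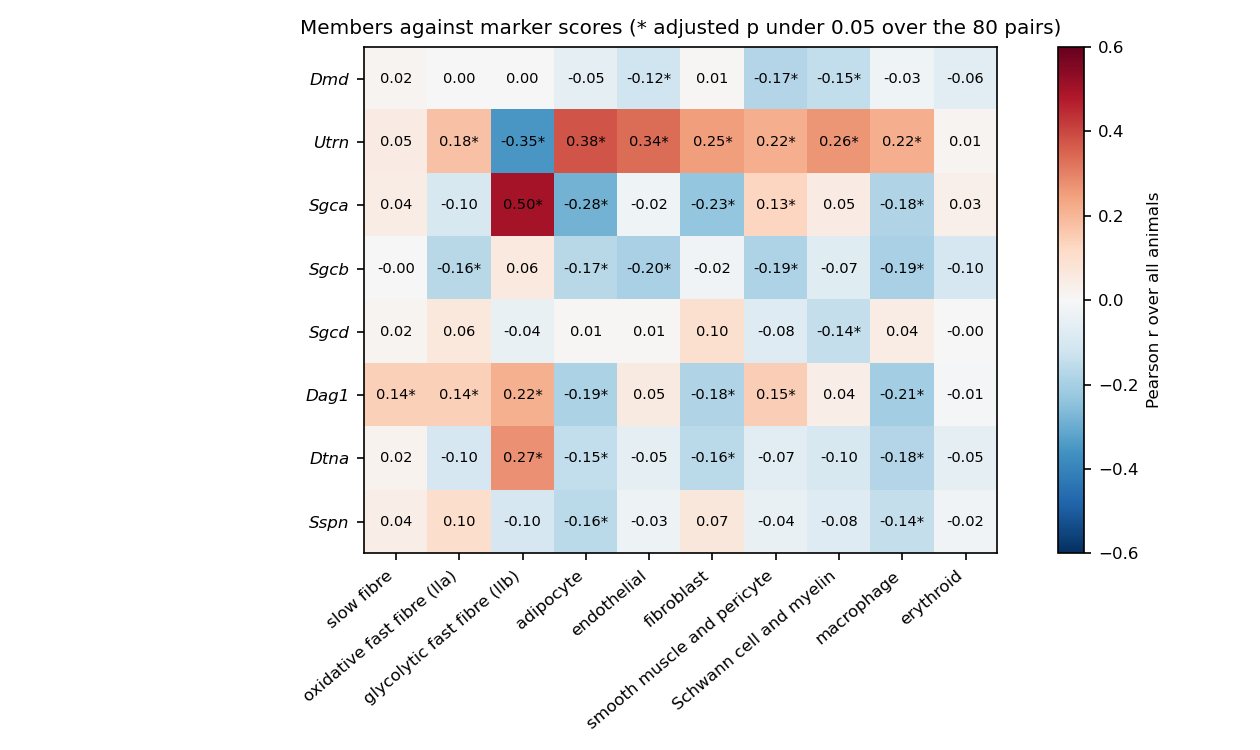
Pearson r of each member (rows) with each of 10 marker scores (columns) over all animals after sex and generation, with asterisks at an adjusted p under 0.05. The row of Utrn is positive for 7 scores and negative for IIb fibre markers (-0.35), and Sgca with IIb fibre markers is the highest cell (0.50).

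Genes that work with the complex were taken from 6 lists. Of 15 further subunits and partners, 13 were tested. In males 5 stood higher and 4 lower (background 24.4% and 30.6%). Dtnb, beta-dystrobrevin, differed most, at 1.74 ± 0.769 CPM (SD over the animals of the sex) in females and 4.85 ± 2.51 in males, a log2 difference of 1.47 (SE 0.0621, adjusted p = 8.90e-80) that was 0.91 by limma on the VST score. Sntb1 (beta-1-syntrophin) was the most reduced, at 9.85 ± 5.40 and 6.94 ± 3.91 CPM with a difference of -0.51 (adjusted p = 8.21e-10). Chosen after their values were seen, Nos1 (neuronal nitric oxide synthase) and Aqp4 (aquaporin 4), both anchored through syntrophin, were lower in males at -0.23 (adjusted p = 1.84e-07, and -0.37 with the marker scores) and -0.25 (adjusted p = 7.24e-06).

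Enzymes that add the laminin-binding sugar to dystroglycan were mostly lower in males, like Dag1 itself. Of 18 tested, 13 were lower and 2 higher, with a median log2 difference of -0.07 against -0.01 over all genes tested. Pomk, which phosphorylates the core mannose, was the most reduced at 8.71 ± 1.39 CPM in females and 6.73 ± 0.959 in males (-0.37, adjusted p = 9.84e-56). The count of lower enzymes was 8 with the marker scores and 9 with the length slope as covariates or without library block 1.

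The ligands went the other way. Of 13 dystroglycan ligands and basement membrane genes, 10 were higher and 2 lower in males, with a median of 0.12. Nid2 (nidogen 2) had the largest increase, 12.8 ± 3.34 CPM in females and 14.9 ± 3.65 in males (0.22, adjusted p = 3.55e-10). Lamb2, the neighbour of Dag1, was lower, with 189 ± 30.2 and 144 ± 24.0 CPM (-0.39, adjusted p = 3.88e-50). Lama2, the laminin chain lost in congenital dystrophy and named after its value was seen, was higher by 0.16 (adjusted p = 7.16e-09). With the marker scores as covariates, 7 of the 13 were higher and 3 lower.

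In the list of integrin, cytoskeletal and repair genes, 6 of 17 were higher and 4 lower in males. Synm (synemin, an intermediate filament protein) was higher in males, at 904 ± 163 CPM in females and 1201 ± 199.9 in males (0.41, adjusted p = 5.22e-51), and Krt19, a keratin that binds dystrophin, was lower at 0.507 ± 0.540 and 0.354 ± 0.169 CPM (-0.51, adjusted p = 4.81e-08), a difference of -0.11 by limma on the VST score. At the neuromuscular junction, where utrophin is found, 7 of 12 genes were higher and 2 lower. Musk, the kinase of the agrin receptor, had the largest increase there, with 23.2 ± 9.37 CPM in females and 39.6 ± 13.9 in males (0.77, adjusted p = 7.07e-43), and Chrnd had the largest decrease at -0.08 (adjusted p = 0.0484). The 2 decreases of that list did not pass with the length slope as covariate.

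Genes of regeneration, which are high when dystrophin-deficient fibres are replaced, were split, with 3 of 8 higher and 5 lower in males. With the marker scores as covariates 1 was higher and 5 were lower. Myog (myogenin) averaged 14.8 ± 10.9 CPM in females and 7.42 ± 5.05 in males (-0.997, adjusted p = 2.08e-27), and Myf5, a marker of satellite cells, 0.890 ± 0.309 and 1.16 ± 0.477 CPM (0.39, adjusted p = 2.16e-13, and 0.17 by limma on the VST score). Between generations, 2, 1, 0, 2, 1 and 0 genes of the 6 lists passed, in the order given here, against 7.56% of all genes tested. No gene of the 6 lists had a sex difference that varied between generations past the threshold.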

How the data were processed

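RNA of skeletal muscle from DO mice was analysed, 1 library per animal, with groups taken from the sex and generation number in the labels. The deposited expected counts were made by the authors with allele-aware quantification (EMASE within GBRS) against a multi-founder transcriptome on GRCm38, from polyadenylated RNA. Software versions and strand setting are not given in the sources used here, so reads of overlapping antisense genes cannot be told apart. The deposited VST score is the authors' variance-stabilising transformation of these counts, on a scale close to log2.

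The deposited counts, rounded to integers, were tested with edgeR 4.0.16 (R 4.3.3; TMM scaling, filterByExpr with a minimum count of 10, quasi-likelihood test, sex and generation in 1 model of all animals), with Benjamini-Hochberg adjustment over the 18823 genes kept (1789 removed) and a threshold of 0.05. DESeq2 1.42.0 and limma 3.58.1 (on the VST score) were alternatives, as were other scalings and filters, covariates (library block, marker scores, length slope) and fits within a sex, generation or block. Leaving out library block 1, and relating members to marker scores and the length slope, were chosen after seeing the data. Correlations used VST scores after sex and generation, with 100000 permutations (numpy 2.4.6, scipy 1.17.1). The length slope used 12592 genes with a mean of at least 1 CPM. The edgeR, DESeq2 and limma fits were also run on simulated counts, drawn independently, with no library blocks or relatedness between animals. In that run limma used log2 CPM and not the VST score, so the limma fit reported here was not tested.

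All 8 members were named. For each member the 3 genes with the highest and the 1 with the lowest r were named, apart from genes overlapping it, and of each pathway list the genes called with the largest difference in each direction. Members and lists were chosen with earlier results of these data known. A few genes that this rule names are not reported here.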

Additional observations from a re-analysis of the deposited data

How the results depend on the processing

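The sex differences of Dag1, Dmd, Dtna and Sspn passed under every alternative fit on all animals, and that of Sgcd turned to -0.0495 within library block 2. The Utrn to Dmd ratio did not pass within generation 23 (0.0966). Pairs past the threshold numbered 9, 3 and 9 within blocks 2, 4 and 5, each with fewer animals, and the median r was 0.175 in females, 0.174 in block 3, 0.0966 in block 4 and 0.171 in block 5. Pairs of Sgca turned sign most. With the length slope, Sgca had r of 0.198 with Dmd, 0.0526 with Sgcb, 0.11 with Sgcd and 0.0267 with Sspn. Without block 1 it had 0.0382 with Dmd, 0.102 with Sgcb and 0.0256 with Sgcd. Within block 2 it had 0.0936 with Dmd, 0.163 with Sgcb, 0.0417 with Sgcd and 0.109 with Sspn, within block 3 0.275 with Sgcb and 0.0675 with Sgcd, within block 4 0.120 with Dmd, 0.137 with Sgcb and 0.0876 with Sgcd, and within block 5 0.148 with Dmd, 0.107 with Utrn and 0.0710 with Sgcd. With marker scores, Utrn had 0.102 with Sgcb and 0.155 with Dtna, and Sgca -0.152 with Dtna. Within block 1, r was -0.111 for Dmd and Dag1, 0.251 for Utrn and Sgcb and -0.0346 for Sgcb and Dag1. Within block 3 it was -0.0292 for Dmd and Sgcb and -0.114 for Dmd and Dtna, and within block 4 -0.126 for Dmd and Sspn. Without covariates Dag1 and Sspn had -0.161. The cause of these changes was not tested.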
